A study of Mus musculus with 2 samples.

Results

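Glucose enters a leukocyte through facilitated transporters and is split to pyruvate and lactate by glycolysis. The 10 genes followed here (10 of the 32245 gene symbols counted in each library) were chosen by name and not by their values. Slc2a1 and Slc2a3 encode the transporters GLUT1 and GLUT3. Hk2 encodes hexokinase 2, which traps glucose by phosphorylation. Aldoa, Tpi1, Gapdh, Pgk1, Eno1 and Pkm encode aldolase A, triosephosphate isomerase, glyceraldehyde-3-phosphate dehydrogenase, phosphoglycerate kinase 1, enolase 1 and the muscle-type pyruvate kinase, which act from the splitting of fructose bisphosphate to pyruvate. Ldha encodes lactate dehydrogenase A, which turns pyruvate into lactate.

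T cells that are stimulated and divide are known to raise glucose uptake and glycolysis, and the transcription factors MYC and HIF are known to drive many of these genes. Activated macrophages and dendritic cells are likewise known to rely on glycolysis. In the islets of NOD mice, which develop autoimmune diabetes, T and B lymphocytes accumulate around and within the endocrine tissue alongside resident macrophages.

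The study profiled single immune cells from pancreatic islets of female NOD mice and of female NOD mice with a Cxcl16 deletion (NOD.Cxcl16-/-), all 12 weeks old, with 1 library for each genotype. CXCL16 is a chemokine that attracts CXCR6-bearing lymphocytes. Islets were freed with collagenase, picked by hand and dispersed without enzyme, and live CD45+ CD31- cells were sorted for 3′ single-cell RNA sequencing. How many animals were pooled for each library is not stated. The p-values below come from fits to several sums of the same 2 libraries, with the library as a covariate. They rest on how far differences between sums vary across these libraries, which also differ in genotype label, and do not measure spread between animals. No test of the genotype itself was possible.

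The wild-type library held 13859 barcodes and the library labelled NOD.Cxcl16-/- 10554, of which 12252 and 10214 passed the filters with medians of 4269 and 5189 unique molecular identifiers (UMIs) per cell. Cells were assigned to 14 types by marker genes that include none of the 10 genes, and 6734 and 6117 cells were placed. Of the remaining kept barcodes, which were left out, 2147 and 1888 carried markers of several lineages. A further 2742 and 1718 were T cells and 147 and 232 myeloid cells that met the rule of no single type. No lineage was found for 482 and 259. For 11 of 13 types a check marker was highest in that type in both libraries. The exceptions were CD8 T cells, where Nkg7 ranked 2 in both, and type 2 conventional dendritic cells (cDC2), where Sirpa ranked 2 and 3. Sirpa is also a gene of the myeloid gate, so its check was not independent. The 2 libraries shared 45 barcode sequences. Cxcl16 transcript was present in the library labelled NOD.Cxcl16-/-, at 549 CPM (UMIs per 1000000 UMIs of the summed cells) in macrophages against 780 in the wild-type library. Reads at the 3′ end need not fall in the deleted part, so this does not check the label. Transcripts of the islet endocrine list (Ins1, Ins2, Gcg, Sst, Ppy, Iapp, Chga and Pcsk1n) summed to 23.1 to 834 CPM in cycling and non-cycling CD8, CD4 and regulatory T cells, and the red cell list to at most 0.54 CPM there.

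Promoters of the genes were searched for HIF and MYC motifs, and whether these bear on any change below was not tested. RefSeq start sites on GRCm38.p6 were available for 9 of the 10 genes, with Slc2a3 unmatched, and the windows ran from 250 bases before to 50 bases after each start. Both strands were searched for ACGTG and GCGTG, the cores of the HIF response element, and for the E-box CACGTG, a MYC site that contains ACGTG on both strands. ACGTG was found in at least 1 window of 7 of the 9 genes, against 21.8% of all 27025 genes with a window. GCGTG was found in 4 of the 9, against 35.2% of all genes. CACGTG was found in 1 of the 9, Ldha, against 8.09% of all genes. Ldha carried 2 E-boxes and 5 matches to ACGTG in its first window, 4 of which are the strands of those E-boxes. Pgk1 and Hk2 each carried 2 matches to ACGTG. Tpi1 carried none of the 3 motifs and Slc2a1 carried 1 match each to ACGTG and GCGTG. A match describes letters, not binding. The 250 bases before the start of 4 genes follow, 5′ to 3′ on the strand of the gene, with all matches in capitals.
Ldha (chr7:46845554-46845803, plus strand): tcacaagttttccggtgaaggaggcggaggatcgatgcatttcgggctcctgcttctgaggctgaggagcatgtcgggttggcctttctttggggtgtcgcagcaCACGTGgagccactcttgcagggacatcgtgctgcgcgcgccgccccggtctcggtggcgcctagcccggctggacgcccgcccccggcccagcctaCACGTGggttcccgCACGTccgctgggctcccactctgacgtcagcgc
Pgk1 (chrX:106186850-106187099, plus strand): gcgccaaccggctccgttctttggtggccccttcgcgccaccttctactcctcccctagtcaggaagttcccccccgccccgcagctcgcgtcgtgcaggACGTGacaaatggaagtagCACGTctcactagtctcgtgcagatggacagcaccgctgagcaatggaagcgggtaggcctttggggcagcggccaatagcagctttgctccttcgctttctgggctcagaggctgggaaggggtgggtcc
Tpi1 (chr6:124814159-124814408, minus strand): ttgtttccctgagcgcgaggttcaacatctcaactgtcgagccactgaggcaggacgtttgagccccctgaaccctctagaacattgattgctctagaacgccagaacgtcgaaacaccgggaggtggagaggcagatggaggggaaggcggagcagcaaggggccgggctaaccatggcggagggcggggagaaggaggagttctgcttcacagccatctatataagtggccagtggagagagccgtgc
Slc2a1 (chr4:119108495-119108744, plus strand): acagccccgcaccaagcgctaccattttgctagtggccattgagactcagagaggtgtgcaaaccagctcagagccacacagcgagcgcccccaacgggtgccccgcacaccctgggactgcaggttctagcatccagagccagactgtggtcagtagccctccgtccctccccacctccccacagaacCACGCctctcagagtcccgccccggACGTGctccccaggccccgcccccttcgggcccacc

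On GRCm38 (GENCODE M21), the genes lie at chr4:119108711-119137983 (Slc2a1, ENSMUSG00000028645), chr6:122727809-122801640 (Slc2a3, ENSMUSG00000003153), chr6:82725025-82774454 (Hk2, ENSMUSG00000000628), chr7:126795234-126800751 (Aldoa, ENSMUSG00000030695) and chr6:124810586-124814296 (Tpi1, ENSMUSG00000023456). The others lie at chr6:125161715-125166467 (Gapdh, ENSMUSG00000057666), chrX:106187100-106203699 (Pgk1, ENSMUSG00000062070), chr4:150236721-150248879 (Eno1, ENSMUSG00000063524), chr9:59656368-59679375 (Pkm, ENSMUSG00000032294) and chr7:46841475-46855627 (Ldha, ENSMUSG00000063229). Because reads come from transcript 3′ ends, splice forms of Pkm and start sites of Ldha are not told apart.

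Cycling CD8 T cells carried more transcript of 8 of the 10 genes than non-cycling CD8 T cells, and less Slc2a1. Cells were called cycling when at least 3 of 10 proliferation genes (such as Mki67, Top2a and Cdk1) had a UMI and non-cycling when none had. The summed level of the 10 genes was 2048 and 2037 CPM in non-cycling and 4301 and 4426 CPM in cycling CD8 T cells (wild-type library first, here and in every pair of values below). Those sums held 1423 and 894 non-cycling cells and 561 and 206 cycling cells, with median depths of 4252 and 4943 against 12345 and 16590 UMIs per cell. Genome-wide, 26.8% of the 10876 genes tested were higher and 24.6% lower (51.4% in all) at an adjusted p under 0.05 in edgeR's quasi-likelihood test, so a shift in some direction was common. The median log2 change of the 10 genes was 1.04, against -0.03 over all genes tested.

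Triosephosphate isomerase showed the largest change of the 10. Tpi1 went from 35.1 and 32.4 CPM in non-cycling to 142 and 164 CPM in cycling CD8 T cells, a log2 change of 2.22 (SE 0.12, adjusted p = 8.16e-14). The groups lay far apart in both libraries. Phosphoglycerate kinase followed: Pgk1 was at 113 and 104 CPM in non-cycling and at 285 and 309 CPM in cycling cells (log2 change 1.504, SE 0.11, adjusted p = 2.34e-11). Gapdh, the enzyme between these steps and often used as a reference gene, was at 822 and 858 against 1963 and 2099 CPM (1.33, SE 0.09, adjusted p = 4.7e-12). These 3 enzymes act in succession in the pathway.

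The last steps rose as well. Ldha was at 381 and 372 CPM in non-cycling and at 789 and 794 CPM in cycling CD8 T cells (log2 change 1.13, SE 0.10, adjusted p = 6.18e-10). Eno1 was at 98.6 and 68.8 against 192 and 145 CPM (1.07, SE 0.10, adjusted p = 2.71e-09). Pkm was at 233 and 232 against 448 and 457 CPM (1.02, SE 0.09, adjusted p = 5.26e-10). Aldoa rose less, from 303 and 310 to 426 and 414 CPM (0.51, SE 0.10, adjusted p = 0.000114). For these enzymes the lower cycling value of the 2 libraries exceeded the higher non-cycling value.

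The transporters, which admit glucose, were not called higher, and the call for hexokinase 2 depended on the setting. Slc2a1 was at 30.01 and 28.6 CPM in non-cycling and at 18.6 and 14.9 CPM in cycling CD8 T cells, a log2 change of -0.72 (SE 0.16, adjusted p = 0.000622). Slc2a3 was at 16.9 and 20.3 against 13.7 and 12.4 CPM (-0.43, SE 0.20, adjusted p = 0.0778). Hk2 was at 14.7 and 11.5 against 24.1 and 16.4 CPM, and was called higher (0.73, SE 0.24, adjusted p = 0.0126). With every cell thinned to 2000 UMIs, which left out 323 and 61 non-cycling and 71 and 4 cycling cells, the changes were -0.66 for Slc2a1 (adjusted p = 0.0828) and 0.53 for Hk2 (adjusted p = 0.346). Among activated-like cells alone, a comparison chosen after the data were seen, they were -0.43 (adjusted p = 0.0863) and 0.43 (adjusted p = 0.255), and the other 7 enzymes were called higher in both settings.

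**Figure D1:**
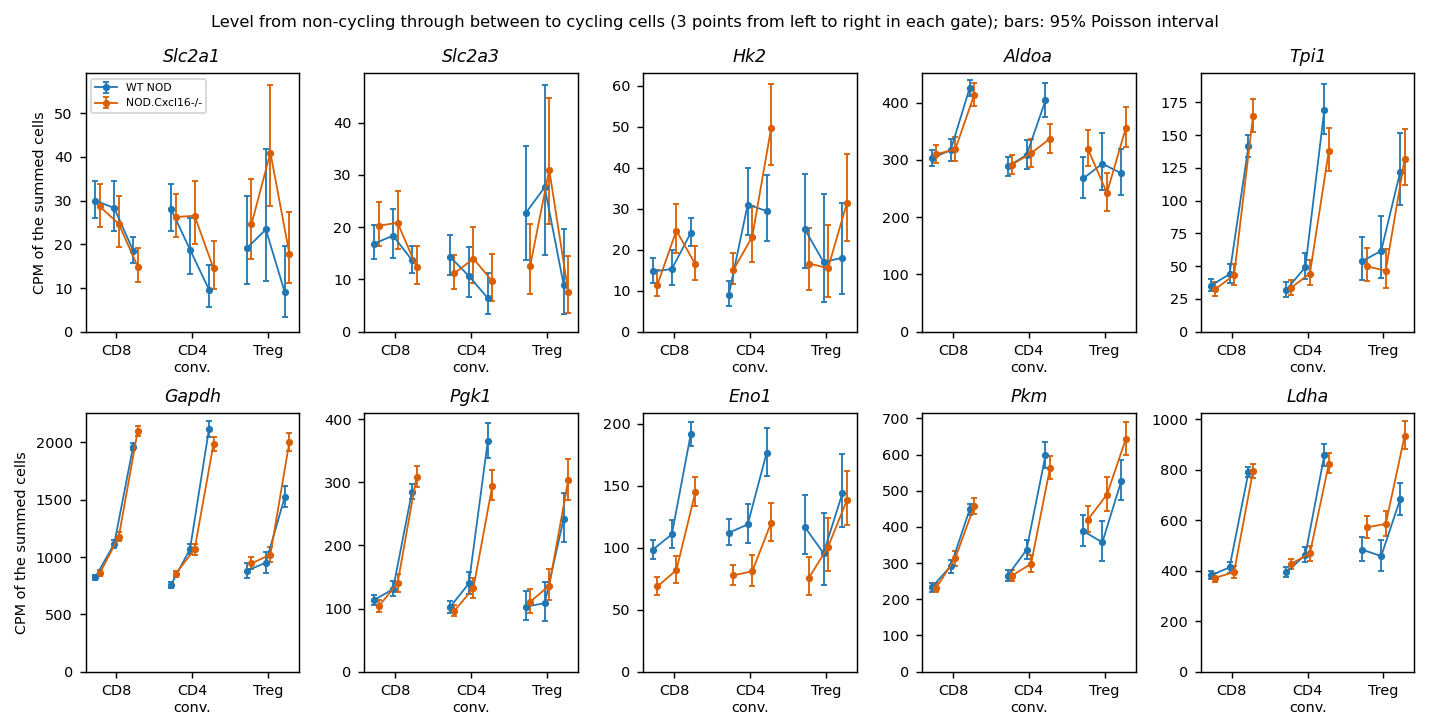
CPM of each gene (y axis, from 0) in CD8, CD4 conventional and regulatory T cells, with 3 points a gate from left to right for non-cycling cells, cells with 1 or 2 proliferation genes, and cycling cells, joined by lines for each library. Bars are 95% Poisson intervals, and Tpi1, for example, is at 35.1 and 32.4 CPM in non-cycling and 142 and 164 CPM in cycling CD8 T cells while Slc2a1 is lower in cycling cells.

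Cells with 1 or 2 of the proliferation genes lay between the ends for the 7 enzymes from Aldoa to Ldha in CD8 and CD4 conventional T cells of both libraries. Hk2 did so in 1 library of each type; in CD8 T cells of the library labelled NOD.Cxcl16-/- it was at 11.5 CPM in non-cycling, 24.7 in the middle class and 16.4 in cycling cells. In regulatory T cells 3 genes (wild type) and 5 genes were higher at both steps, and wild-type Ldha was at 483, 457 and 682 CPM. In CD8 T cells Gapdh went from 822 and 858 CPM through 1114 and 1175 CPM to 1963 and 2099 CPM. For Gapdh the larger step was thus the one from the middle to the cycling class, as the plot by cycling class shows.

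In CD4 conventional T cells the same 8 of 10 genes were called higher in cycling cells and Slc2a1 lower, where 25.1% of genes were called higher and 20.9% lower (46.0% in all). Tpi1 went from 32.0 and 33.5 to 169 and 138 CPM (log2 change 2.39, SE 0.14, adjusted p = 4.32e-13). Hk2 went from 8.93 and 15.1 to 29.4 and 49.8 CPM (1.88, SE 0.27, adjusted p = 3.96e-06). Pgk1 (1.89), Gapdh (1.52), Pkm (1.29), Ldha (1.20), Eno1 (0.81) and Aldoa (0.51) complete the genes called higher on the log2 scale. Slc2a1 went from 28.0 and 26.2 to 9.64 and 14.5 CPM (-0.99, SE 0.24, adjusted p = 0.00134), on only 18 and 30 UMIs in the 100 and 95 cycling cells. Slc2a3 was at 14.4 and 11.2 against 6.43 and 9.66 CPM (-0.48, adjusted p = 0.207). In thinned cells 6 genes were called higher, Slc2a1 was no longer called (-1.81, adjusted p = 0.0529), and Eno1 was at 0.21 (adjusted p = 0.58). The endocrine list summed to 834 and 113 CPM in the cycling and to 213 and 285 CPM in the non-cycling cells, and its part in these values was not tested.

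In regulatory T cells, which carry Foxp3, 6 of 10 genes were called higher in cycling cells and 0 lower, where 16.0% of genes were called higher and 12.9% lower (28.8% in all). Without adjustment the counts at p under 0.05 were also 6 and 0, and DESeq2 called 6 and 0. Pgk1 was at 103 and 111 CPM in non-cycling and at 242 and 303 CPM in cycling cells (log2 change 1.51, SE 0.16, adjusted p = 4.62e-08). Gapdh was at 881 and 945 against 1525 and 2003 CPM (1.09, SE 0.10, adjusted p = 3.14e-09). Tpi1 (1.45), Ldha (0.76), Eno1 (0.75) and Pkm (0.68) were also called higher, with Eno1 at 0.40 in the wild-type library alone and 1.04 in the other. Ldha and Pkm already stood above the other T cell gates in non-cycling regulatory cells, at 483 and 572 CPM for Ldha and at 389 and 420 CPM for Pkm. In thinned cells 2 genes, Gapdh and Pgk1, were called, and Tpi1 was at 0.60 (adjusted p = 0.479), from 37 and 49 cycling cells. The endocrine list stood at 754 and 261 CPM in the non-cycling and 82.6 and 65.5 CPM in the cycling cells, and its part was not tested.

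None of the 10 genes passed the test that the cycling difference itself differed between CD8 and CD4 conventional T cells (0 of 10 by edgeR, 3 of them at an unadjusted p under 0.05, and 0 of the 7 with an adjusted p from DESeq2, which gave none for Hk2, Slc2a1 and Slc2a3), where 2.72% of genes were called (0.837% with a positive and 1.88% with a negative difference). Those 3 were Hk2 (CD8 minus CD4 difference of log2 changes -1.15, SE 0.37, adjusted p = 0.105), Pgk1 (-0.39, SE 0.16) and Pkm (-0.27, SE 0.12). Cycling B cells were few, 22 and 42, and entered no test. Their summed level of the 10 genes was 3159 and 3278 CPM, against 1240 and 1267 CPM in non-cycling B cells, and Tpi1 was at 156 and 160 against 40.7 and 39.0 CPM.

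**Figure D2:**
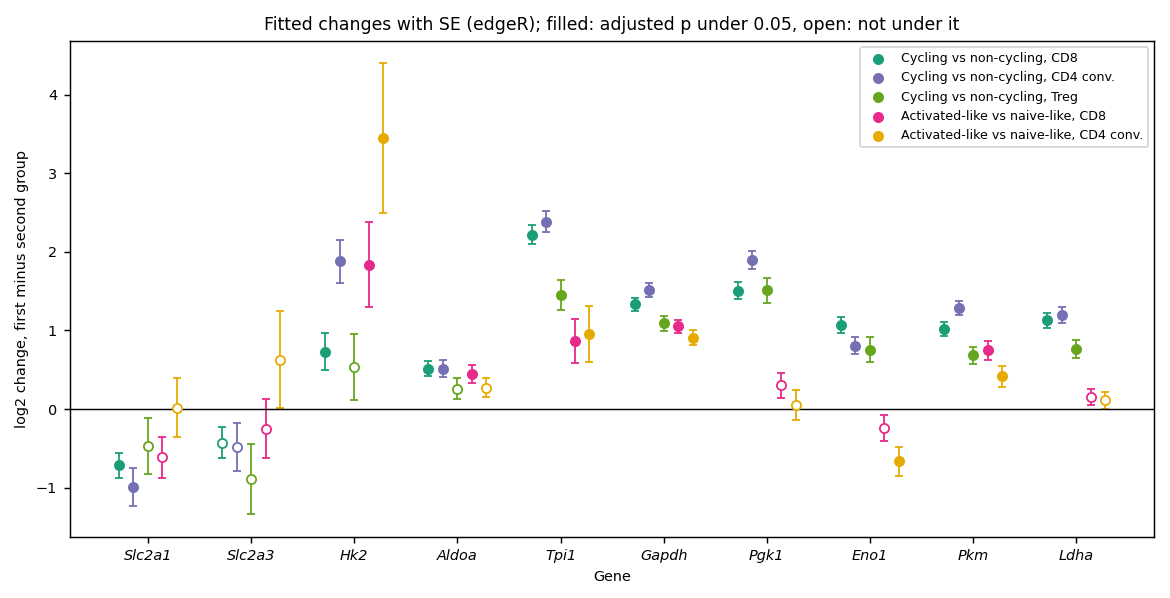
Fitted log2 change (y axis) of each gene in 5 comparisons, with SE bars; filled points have an adjusted p under 0.05. Tpi1 and Pgk1 lie highest for cycling cells, at 2.22 and 1.504 in CD8 T cells, and Pgk1, Eno1 and Ldha have no filled point above 0 for activated-like against naive-like cells.

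The next comparison asks how the genes differ with activation among cells that are not dividing. Among non-cycling CD8 T cells, activated-like cells had at least 2 of 8 genes such as Pdcd1, Lag3 and Icos, and naive-like cells had at least 2 of 4 genes such as Ccr7 and Lef1 and none of the 8. The classes held 549 and 429 against 180 and 130 cells at similar depth, with medians of 4680 and 5209 against 4844 and 4820 UMIs. Of the 10 genes, 5 were called higher and 0 lower (1 lower at an unadjusted p under 0.05, 0 by DESeq2), where 12.4% of 9171 genes were called higher and 11.8% lower. Gapdh was at 391 and 489 CPM in naive-like and at 1055 and 1054 CPM in activated-like cells (log2 change 1.06, SE 0.08, adjusted p = 1.45e-34). Pkm was at 150 and 144 against 291 and 285 CPM (0.75, SE 0.12, adjusted p = 1.21e-08). Aldoa (0.45) was called too. Tpi1 was at 26.7 and 9.20 CPM, on 24 and 6 UMIs, against 39.4 and 42.7 CPM (0.86, adjusted p = 0.0121); its change was 0.35 in the wild-type library alone and 1.95 in the other, and it was not called by DESeq2 (adjusted p = 0.215) or in thinned cells (0.0974). Hk2 had 5 and 1 UMIs in naive-like and 55 and 31 in activated-like cells, a pooled ratio of CPM of 4.23 (95% counting interval 1.87 to 11.8). DESeq2 called 3 genes higher, as did edgeR in thinned cells.

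Pgk1, Eno1 and Ldha, which were called higher in cycling cells, did not pass the test here. In CD8 T cells Ldha was at 290 and 345 CPM in naive-like and 427 and 385 CPM in activated-like cells (log2 change 0.15, adjusted p = 0.287), Pgk1 at 106 and 56.8 against 122 and 118 CPM (0.30, adjusted p = 0.152), and Eno1 at 106 and 61.4 against 94.7 and 70.7 CPM (-0.24, adjusted p = 0.305). Slc2a1 was at 35.6 and 32.2 against 24.5 and 27.5 CPM (-0.61, adjusted p = 0.0723). Whether the 2 contrasts differ for any gene was not tested, since their cells overlap. This fit had 8 sums and 3 residual degrees of freedom, and its spread was estimated as common to all genes.

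Among CD4 conventional T cells, 4 genes were called higher and 1 lower, where 12.2% were called higher and 11.1% lower. Gapdh was at 363 and 488 CPM in the 117 and 99 naive-like cells and at 914 and 994 CPM in the 480 and 518 activated-like cells (log2 change 0.91, SE 0.09, adjusted p = 1.4e-20). Tpi1 was called higher (0.96), from 8 and 8 UMIs in naive-like cells. Pkm was at 151 and 231 CPM against 307 and 299 CPM (0.42), and its change was 0.77 in the wild-type library alone and 0.09 in the other. Its call was lost with DESeq2 (adjusted p = 0.131) and in thinned cells (0.15). Hk2 had 0 and 1 UMIs in naive-like and 21 and 53 UMIs in activated-like cells. The pooled ratio for Hk2 was 14.1, with a 95% counting interval from 2.46 to 565, and in the wild-type library alone the level was at least 1.59-fold higher than that of 3 UMIs. Eno1 was the gene called lower, at 129 and 79.2 CPM in naive-like and 91.4 and 65.9 CPM in activated-like cells (-0.67, SE 0.19, adjusted p = 0.00303). DESeq2 called 1 gene higher and 0 lower, and thinned cells gave 1 higher, Gapdh, and 1 lower, Eno1, with Tpi1 at -0.18 (adjusted p = 0.868).

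Cell types differed in all 10 genes. Across 13 types with at least 20 non-cycling cells in both libraries, the edgeR F-test over types called 10 of 10 genes, where 79.9% of 9747 genes were called. Summed over the 10 genes, regulatory T cells stood highest at 2361 and 2546 CPM and plasma cells lowest at 882 and 943 CPM. Macrophages (2330 and 2049 CPM), type 1 conventional dendritic cells (cDC1, 2220 and 1998), group 2 innate lymphoid cells (ILC2, 2129 and 2045) and CD4 (2003 and 2099) and CD8 T cells (2048 and 2037) followed with overlapping ranges. B cells came next above plasma cells, at 1240 and 1267 CPM.

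**Figure D3:**
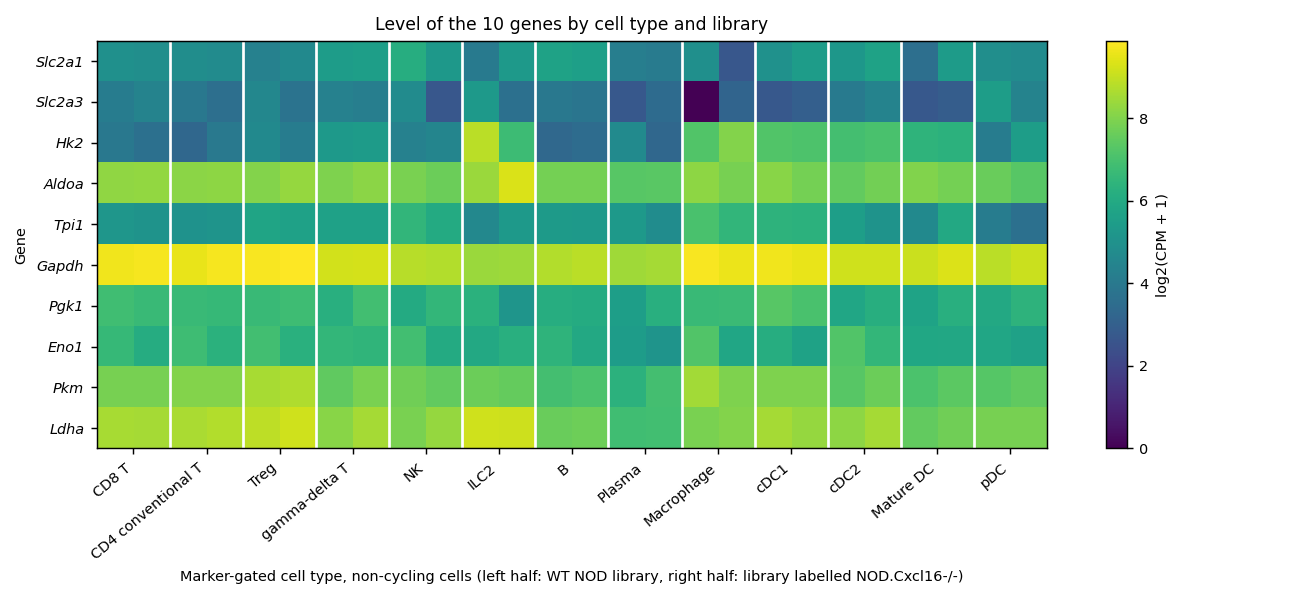
Level of each gene (rows) as log2(CPM + 1) in the non-cycling cells of 13 types (columns, wild-type library on the left and the library labelled NOD.Cxcl16-/- on the right of each pair). Hk2 is bright in ILC2, macrophages, cDC1, cDC2 and mature dendritic cells and darker in the other types. It is at 9.04 and 10.4 CPM in B cells and 147 and 265 CPM in macrophages, whereas Gapdh varies less.

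Hexokinase 2 separated the types most. Its mean level ranged 29.6-fold, from 9.04 and 10.4 CPM in B cells to 466 and 109 CPM in ILC2. Myeloid cells came next, with 147 and 265 CPM in macrophages, 147 and 138 in cDC1, 120 and 133 in cDC2 and 86.0 and 81.7 in mature dendritic cells. A gap followed: gamma-delta T cells had 39.1 and 41.4 CPM, plasmacytoid dendritic cells (pDC) 16.5 and 43.8, regulatory T cells 25.1 and 16.6, NK cells 19.4 and 21.8, plasma cells 25.9 and 8.99, CD8 T cells 14.7 and 11.5 and CD4 conventional T cells 8.93 and 15.1. The 2 libraries' ranges overlapped in 9 of the 12 neighbouring pairs of that order, but not between mature dendritic cells and gamma-delta T cells. In the wild-type ILC2, 35 of the 60 Hk2 UMIs came from 1 of 28 cells, and without it the level was 215 CPM.

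Lactate dehydrogenase A was highest in ILC2 (575 and 563 CPM) and regulatory T cells (483 and 572), followed by CD4 (393 and 427) and CD8 T cells (381 and 372), and lowest in plasma cells (115 and 119). Cells of the dendritic, gamma-delta, NK and macrophage types lay between 183 and 378 CPM, and B cells at 198 and 206 CPM. Pkm ran from 389 and 420 CPM in regulatory T cells down to 79.8 and 120 CPM in plasma cells. Tpi1 was highest in macrophages (132 and 90.02 CPM, on 9 and 33 UMIs) and cDC1 (82.1 and 80.5). It was lowest in pDC (16.5 and 11.7, on 7 and 4 UMIs). Aldoa was highest in ILC2 (334 and 644), with other types between 157 and 319 CPM. Eno1 was highest in cDC2 (147 and 93.6) and lowest in plasma cells (42.7 and 34.1), and Pgk1 highest in cDC1 (159 and 131) with the other types between 34.5 and 118 CPM.

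The transporters were sparse. Slc2a1 lay between 5.46 and 71.3 CPM in all types. By mean level NK cells came first (71.3 and 38.1 CPM), on only 11 and 7 UMIs. B cells came next (50.4 and 47.1 CPM, on 312 and 348 UMIs), with a range that overlapped that of NK cells. Slc2a3 had its highest mean in pDC (44.9 and 20.4 CPM), on only 19 and 7 UMIs. It had 0 UMIs in the 20 wild-type macrophages, where 3 UMIs would be 44.0 CPM. Neighbouring types overlapped in 10 of 12 pairs for Slc2a1 and in 11 of 12 for Slc2a3.

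Against the mean of the other 12 types, macrophages were called higher for 4 of the 10 genes and lower for 0 (1 at an unadjusted p under 0.05, and 0 by DESeq2), where 14.7% of genes were called higher and 7.86% lower (22.6% in all). The 4 were Hk2 (log2 difference 2.98, SE 0.32, adjusted p = 3.27e-09), Tpi1 (1.51, SE 0.29, adjusted p = 0.00011), Pkm (0.68, SE 0.16, adjusted p = 0.00183) and Gapdh (0.65, SE 0.12, adjusted p = 6.58e-05). The gate held 20 and 52 cells, with medians of 1530 and 5975 UMIs per cell. Hk2 had 10 and 97 UMIs there, and 4 of the 10 came from 1 cell. The Hk2 difference was 1.89 in the wild-type library alone and 3.28 in the other. Islet endocrine transcripts summed to 1568 and 22360 CPM in these macrophages, and their part in the differences was not tested.

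B cells differed the other way. Of the 10 genes, 4 were called lower and 1 higher, where 16.4% of genes were lower and 31.2% higher (47.6% in all). Hk2 was lower by a log2 difference of -2.22 (SE 0.26, adjusted p = 1.21e-08), Pkm by -0.63 (SE 0.09), Ldha by -0.55 (SE 0.08) and Gapdh by -0.38 (SE 0.10). Slc2a1 was the gene called higher (0.82, SE 0.14, adjusted p = 5.82e-06).

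Several steps are shared between paralogs, and the balance within a pair does not depend on scaling. Each 3′ UMI counts 1 transcript whatever its length. Hk2 made up 27.3% and 21.8% of the UMIs of Hk1 and Hk2 in non-cycling CD8 T cells and 13.6% and 24.1% in CD4 conventional T cells. In macrophages it made up 83.3% and 92.4%, with exact 95% intervals of 51.6% to 97.9% and 85.5% to 96.7%. In cDC1 it made up 89.7% and 83.3%, in cDC2 82.8% and 82.0%, and in mature dendritic cells 75.6% and 76.9%. Cycling CD4 conventional T cells reached 39.9% and 50.5%, with intervals above those of non-cycling cells in both libraries, whereas cycling CD8 T cells were at 38.3% and 28.2%, with intervals apart from those of non-cycling cells in the wild-type library only.

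Ldha made up over 90% of the UMIs of Ldha and Ldhb in 12 of the 13 types in both libraries. The exception was pDC, at 56.1% (97 of 173 UMIs, 48.3% to 63.6%) and 70.2% (80 of 114 UMIs, 60.9% to 78.4%). LDHB is the subunit known to favour pyruvate formation. Slc2a1 made up 77.8% and 77.9% of the transporter pair in B cells and 64.0% and 58.6% in CD8 T cells. Among phosphofructokinases, Pfkp made up 82.0% and 84.9% of UMIs in non-cycling CD8 T cells and 54.0% and 52.7% in B cells. No test was made between types for these shares.

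**Figure D4:**
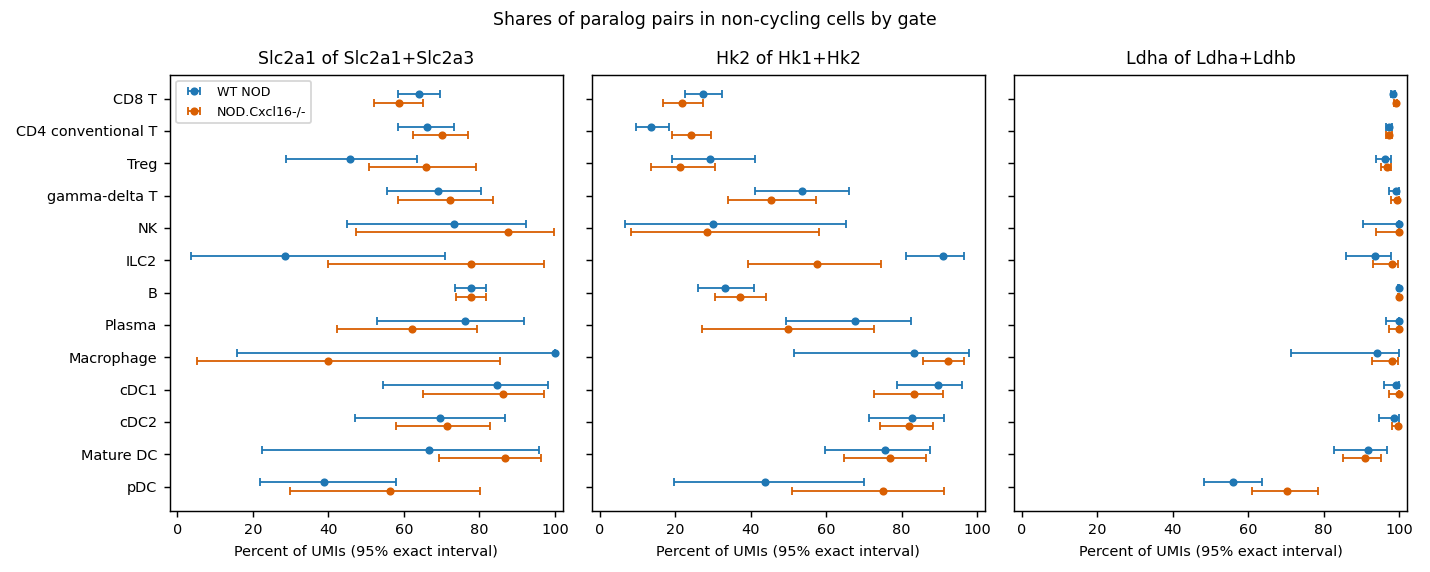
Share of UMIs (x axis, percent) held by Slc2a1, Hk2 and Ldha in their paralog pairs in the non-cycling cells of 13 types (y axis), 1 point a library with its exact 95% interval. Hk2 holds 83.3% and 92.4% in macrophages but 27.3% and 21.8% in CD8 T cells, and Ldha is below 90% only in pDC.

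Of 26 further glycolysis genes 15 could be tested. In cycling against non-cycling CD8 T cells 2 of the 15 were called higher and 1 lower, where 26.8% and 24.6% of all genes were, with a median log2 change of 0.14 (-0.03 over all genes). Pgam1, the mutase between Pgk1 and Eno1, went from 112 and 115 to 247 and 252 CPM (1.20, SE 0.08, adjusted p = 1.69e-11). Eno3, a muscle enolase, went from 11.9 and 9.20 to 31.7 and 28.4 CPM (1.55, SE 0.16). Ldhb went from 5.88 and 3.56 to 1.21 and 1.24 CPM (-1.92, SE 0.41, adjusted p = 0.000399). None of these enzymes of the upper steps was called in CD8 T cells by edgeR: Hk1 0.06 (adjusted p = 0.71), Gpi1 0.02 (adjusted p = 0.819), Pfkp 0.16 (adjusted p = 0.219) and Pfkl 0.37 (adjusted p = 0.0694). In CD4 conventional T cells 5 of the 15 were called higher (Pgam1, Eno3, Slc16a3, Gpi1 and Pfkl) and 2 lower (Bpgm and Pfkfb4), where 25.1% and 20.9% of all genes were, and the median was 0.19 (-0.02 over all genes). Gpi1, glucose phosphate isomerase, was at 0.42 there (adjusted p = 0.000207) and Pfkl, a phosphofructokinase, at 0.59 (adjusted p = 0.0187). In regulatory T cells Pgam1 and Eno3 were called, both higher, where 16.0% of all genes were called higher and 12.9% lower, with a median of 0.0083 (-0.05 over all genes).

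Most mitochondrial respiration genes were called higher in cycling cells: 24 of 26 in CD8, 23 of 26 in CD4 conventional and 21 of 26 in regulatory T cells, with median log2 changes of 0.77, 0.89 and 0.75, beside the shares and medians over all genes just given. Fh1, fumarate hydratase of the citrate cycle, went from 27.4 and 22.6 to 63.3 and 77.3 CPM in CD8 T cells (1.51, SE 0.15), and Cox5a, a subunit of cytochrome oxidase, from 416 and 417 to 938 and 939 CPM (1.23, SE 0.08). Between activated-like and naive-like CD8 T cells 7 of the 26 were called higher and 1 lower, where 12.4% and 11.8% of all genes were. In CD4 conventional T cells 3 were called higher and 2 lower, where 12.2% and 11.1% of all genes were. Of 15 tested genes in the MYC list, which holds Ldha too, 11 were called higher and 1 lower in cycling CD8 T cells. There 26.8% of all genes were called higher and 24.6% lower. The list's median log2 change was 0.77 (-0.03 over all genes), and Nme1 (1.35) and Cad (1.35) were among those called higher. In activated-like CD8 T cells 0 of the 15 were called higher and 5 lower, where 12.4% and 11.8% of all genes were. The hypoxia response list gave 3 higher and 5 lower of 14 in cycling CD8 T cells, where 26.8% and 24.6% of all genes were. Its median log2 change was -0.44, against -0.03 over all genes. P4ha1, a collagen prolyl hydroxylase, was at 43.6 and 60.4 against 16.5 and 30.6 CPM (-1.15, SE 0.15). Pdk1, which restrains pyruvate dehydrogenase, was at 3.40 and 2.51 against 1.33 and 0 CPM (-1.86, SE 0.58).

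Gapdh and Pgk1 are common reference genes, and 16 such genes were set side by side. Their ratio of highest to lowest mean level over the 13 types was 2.69 for Gapdh and 2.58 for Pgk1, at ranks 5 and 3 of the 16 from the smallest. Hprt had the smallest, 1.83, and Tfrc the largest, 72.3. In cycling CD8 T cells 8 of the 16, among them Ppia at 1.24, were called higher and 3 lower, where 26.8% and 24.6% of all genes were. Gapdh and Pgk1 themselves are among those 8.

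Over 55 sums of type, cycling class and library, the 10 genes' mean log2 level was followed most closely by Snrpd3 (Pearson r = 0.86), Atp5d, Raly, Mrpl33, Hint1, Ndufa8, Atp5j, Uqcr10, Snrpf and Psmd1 (r = 0.82), out of 5810 genes. They are genes of splicing, mitochondrial and proteasome complexes among others. These sums share libraries and differ in depth. Among the 7 enzymes from Aldoa to Ldha the 21 pairwise correlations ran from 0.28 to 0.91 with a median of 0.70. The 24 pairs that include Slc2a1, Slc2a3 or Hk2 ran from -0.49 to 0.22 with a median of -0.13.

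Between the libraries, few of the 10 genes were past 1.5-fold in the large types. Each value here compares 1 library with 1 other, with no replicate. The intervals therefore cover counting error only and leave out variation between animals or batches. In non-cycling CD8 T cells 0 of the 10 genes were past 1.5-fold, where 4.54% of genes were, and the median log2 ratio (library labelled NOD.Cxcl16-/- over wild type) was -0.05. In cycling CD8 T cells 0 of 10 were past it, where 4.63% of genes were, with a median of -0.02. In B cells 0 of 10 were, where 3.63% were, with a median of -0.03. Non-cycling CD4 conventional T cells gave 1 gene of 10, Hk2 at 8.93 and 15.1 CPM, where 4.25% of genes were past 1.5-fold. Cycling CD4 conventional T cells gave 1 of 8 genes, Hk2 at 29.4 and 49.8 CPM, where 7.82% of genes were past it. Hk2 (log2 ratio 0.74) was the 1 gene of those 8 above 0, and their median was -0.17, against 0.06 over all genes. The counting interval lay below 0 there for Eno1 (-0.55), Pgk1 (-0.31), Tpi1 (-0.29), Aldoa (-0.26) and Gapdh (-0.09), and included 0 for Pkm and Ldha.

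Eno1 differed in 1 direction in most sums. It was lower in the library labelled NOD.Cxcl16-/- in 15 of 17 sums, and in 7 of the 12 sums with at least 50 UMIs the counting interval lay below 0. All sums come from the same 2 libraries, and the share of all genes with such a one-sided count was not computed. Ldha was lower in 4 and Gapdh in 5 of the 17 sums. Their intervals lay above 0 in 5 and 6 sums and below 0 in 0 and 1. Eno1 levels were 98.6 and 68.8 CPM in non-cycling CD8 T cells (log2 ratio -0.51, interval -0.71 to -0.32), 112 and 77.8 CPM in CD4 conventional T cells and 84.4 and 61.3 CPM in B cells. Its near-identical copy Eno1b was at 4.49 and 7.11 CPM in those CD8 T cells, and reads may be split between the copies. The sum of both copies was 103 and 75.9 CPM in non-cycling CD8 T cells, a log2 ratio of -0.44. That ratio was 0.039 in cycling regulatory T cells and -0.10 in cycling B cells. In CD8, CD4 conventional, non-cycling regulatory T and non-cycling B cells it ran from -0.60 to -0.32. Animals, batch and genotype cannot be told apart here.

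In smaller types single values were larger. Hk2 was at 466 and 109 CPM in ILC2 (60 and 19 UMIs) with the concentration in 1 cell given above, and Aldoa at 334 and 644 CPM. In ILC2 2 of 5 genes with enough UMIs were past 1.5-fold, where 21.2% of genes were. Non-cycling regulatory T cells gave 1 of 7, Eno1 at 117 and 76.0 CPM, where 7.40% were. In macrophages 1 of 5 was, Hk2, where 31.7% were. Plasma cells gave 2 of 7, Pgk1 at 45.0 and 74.6 CPM (log2 ratio 0.72, interval 0.17 to 1.31) and Pkm at 79.8 and 120 CPM (0.59), where 11.1% were. Gamma-delta T cells gave 1 of 9, Pgk1 at 74.9 and 118 CPM (0.65), where 10.0% were, and cDC2 gave 1 of 8, Eno1 at 147 and 93.6 CPM (-0.65), where 13.4% were. NK cells gave 0 of 4, where 13.3% of genes were past it, and cycling B cells 0 of 7, where 18.8% were. It was 0 of 7 in cDC1 (16.1% of genes), 0 of 7 in mature dendritic cells (16.4%) and 0 of 5 in pDC (13.3%). In cycling regulatory T cells the median log2 ratio was 0.32 over 7 genes with 0 past 1.5-fold, where 11.3% were.

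**Figure D5:**
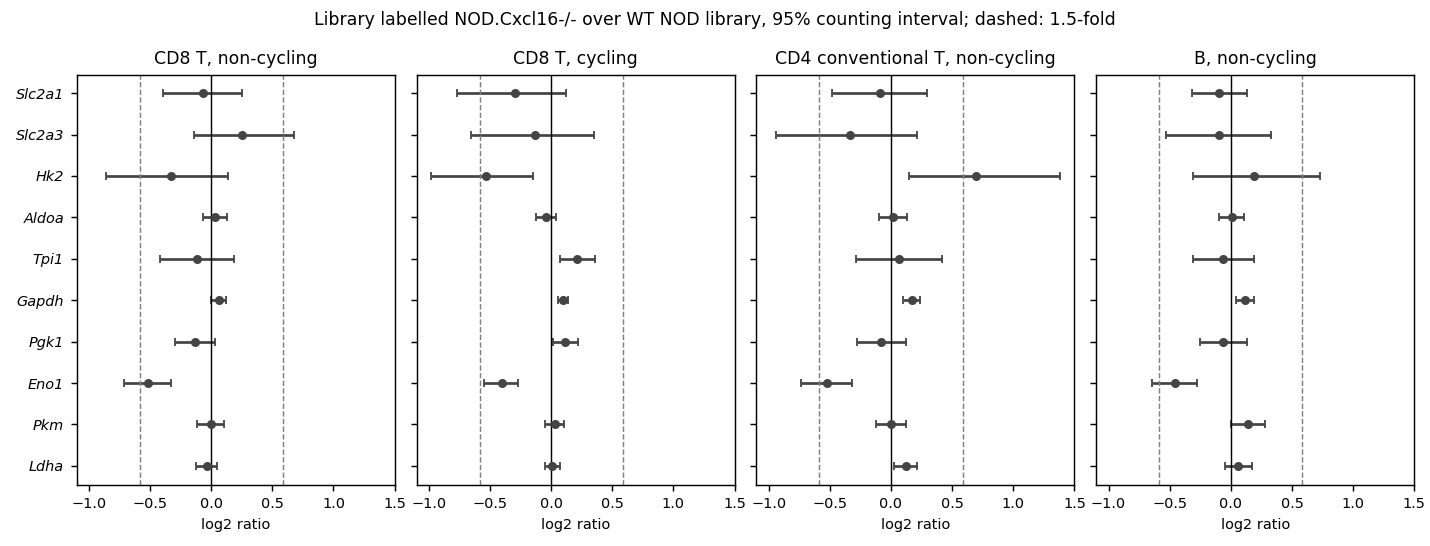
Log2 ratio of CPM with 1 CPM added (x axis), library labelled NOD.Cxcl16-/- over wild type, for each gene (y axis) in 4 large groups of cells. Bars are 95% counting intervals and dashed lines mark 1.5-fold; Eno1 lies to the left in all 4, at -0.51 in non-cycling CD8 T cells, while most others sit near 0.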

How the data were processed

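Per the labels' protocols, live CD45+ CD31- cells from handpicked islets were profiled with a droplet 3′ kit, 1 library for each genotype. Per the submitters' processing notes, Cell Ranger 7.0.1 and the mm10 build were used; the deposited matrices hold UMI counts per gene and barcode, not normalized. Barcodes with at least 500 detected genes and at most 10% mitochondrial counts were kept (12252 and 10214). The lowest deposited barcode had 500 UMIs. Cells were gated by marker genes into 14 types. Barcodes of mixed lineage, of no lineage, and T or myeloid cells that met the rule of no single type were left out. A Scrublet-type doublet score was applied only as an alternative (326 and 74 gated cells). The 2 rows with the symbol Aldoa were summed.

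Counts were summed per library, type and class with at least 20 cells and tested with edgeR 4.0.16 (quasi-likelihood, TMM, library as covariate, Benjamini-Hochberg over all genes tested; called means an adjusted p under 0.05). Libraries were the replicates, and each fit held several sums of the same 2 libraries. CPM have exact Poisson intervals and shares exact Clopper-Pearson intervals, at 95% and for counting error only. Between libraries no test was made; log2 ratios had 1 CPM added, and a 1.5-fold threshold was applied to genes with at least 50 UMIs over both libraries. The fit for cycling was tested on simulated data: of 100 genes each changed 1.5-fold and 2-fold, 39% and 88% were recovered among 10438 genes. Only these genes were changed, in cycling CD8 T cells, whereas 51.4% of genes were called there in the real fit. The simulated dispersion was also set above the common dispersion of 0.00349 in that fit. These rates therefore do not give the power of the reported fit. The 12 sums of the cycling fit left 5 residual degrees of freedom, and the 26 sums of the cell type fit left 12.

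All 10 genes were named in each comparison; of other lists, those past adjusted p 0.05 with a log2 change of at least 1 in cycling CD8 T cells were named, at most 5 a list, except that some are not reported here. The genes Hk1, Gpi1, Pfkp, Pfkl, Bpgm, Pfkfb4, Slc16a3, Hprt and Tfrc and those of the closing section were named after their values were seen. The members, lists and markers were chosen with earlier results of these data known, and the markers of the gate check were chosen after seeing the data. Alternatives were other normalizations (DESeq2 1.42.0 among them), filters, gates, depth and totals.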

Additional observations from a re-analysis of the deposited data

How the results depend on the processing

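No paired analysis was possible because each genotype has 1 library; the comparisons within libraries already carry the library as a covariate. Of the counts of members called or past 1.5-fold and their alternatives, 230 kept within 1.5 times and 26 did not. For cycling CD8 T cells the number called lower was 2 with library totals only, no low-count filter, at least 1000 genes, the doublet score, totals without immunoglobulin, T-cell receptor, ribosomal, mitochondrial and histone genes, and cycling at 5 or more genes, and 0 in cells thinned to 2000 UMIs and in activated-like cells only (added after seeing the data). In CD4 conventional T cells it was 0 when thinned. For regulatory T cells 2 were called higher when thinned and 1 lower at 5 or more cycling genes. The CD8 minus CD4 difference gave 1 lower with no low-count filter. Activated-like CD8 T cells gave 3 higher, and CD4 conventional T cells 1 higher, with DESeq2 and when thinned; CD4 gave 0 lower with library totals only and with DESeq2. Macrophages gave 1 lower with library totals only. Between libraries, members past 1.5-fold became 2 with the mean of each cell's CPM in non-cycling CD8 T cells; 1 at 5 or more cycling genes and when thinned in cycling CD8 T cells; 1 when thinned in B cells; and 2 in macrophages with TMM scaling, the mean of each cell's CPM and at least 10 UMIs. The cause was not tested for any of these.

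Of the tested values that changed sign, none was called under the alternative, and 1, Tpi1 in activated-like CD4 conventional T cells (0.96), was called in the reported fit. When thinned, regulatory Hk2 was -0.0079 and Aldoa -0.0027, the CD8 minus CD4 difference of Gapdh 0.033 and of Ldha 0.062, activated-like CD4 Tpi1 -0.18 and Pgk1 -0.018, B-cell Tpi1 0.032 and Pgk1 0.00030, and the median library log2 ratio in cycling regulatory T cells -0.031. With library totals only, the CD8 minus CD4 difference was 0.10 for Aldoa and 0.034 for Ldha, macrophage Aldoa -0.04999 and B-cell Eno1 -0.044. The CD8 minus CD4 difference of Slc2a3 was -0.085 with the doublet score and at 5 or more cycling genes, -0.0053 with totals without those genes and -0.0076 with mixed barcodes given to a dominant lineage. Macrophage Ldha was 0.048 with RLE normalization, 0.047 with DESeq2, 0.021 with at least 200 genes, 0.035 with totals without those genes and 0.016 with dominant-lineage barcodes. With at least 1000 genes B-cell Slc2a3 was -0.0055 and Tpi1 0.040336; Tpi1 was 0.0050 with no low-count filter and 0.018 with the doublet score. B-cell Eno1 was -0.056 with RLE normalization and DESeq2 and -0.070291 with totals without those genes. Activated-like CD4 Slc2a1 was -0.01018 with the doublet score. The macrophage comparison with at least 1000 genes, when thinned and with the doublet score was not run, because under 20 macrophages remained in a library. Depth limits the naive-like sums, which held 6 to 24 UMIs of Tpi1 and 0 to 5 of Hk2.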

Other observations

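Of the 15 other glycolysis genes tested, 2 were called for a cycling difference that itself differed between CD8 and CD4 conventional T cells, where 2.72% of all genes were: Pgam1 (CD8 minus CD4 difference of log2 changes -0.76) and Ldhb (-2.11). Pgam1, the phosphoglycerate mutase, was called higher in cycling cells of both types, by 1.20 in CD8 and 1.95 in CD4 conventional T cells. Ldhb, the other lactate dehydrogenase subunit, was called lower in cycling CD8 T cells (-1.92) and was not called in CD4 conventional T cells (0.19, adjusted p = 0.642). These Ldhb values rest on few UMIs. Of the UMIs of Ldha and Ldhb, Ldha held 6503 of 6513 and 3192 of 3197 in cycling CD8 T cells. In cycling CD4 conventional T cells it held 1599 of 1628 and 1705 of 1721. Slc16a3, which encodes the lactate exporter MCT4, was called higher in cycling CD4 conventional T cells (2.28, SE 0.43, adjusted p = 0.000121 by edgeR), with 0.91 (adjusted p = 0.105) in CD8 and -0.82 (SE 0.43, adjusted p = 0.161) in regulatory T cells. Its CD8 minus CD4 difference was not called (-1.37, adjusted p = 0.377).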
